A study of Bos taurus with 27 samples.

Results

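Among genes whose share of the RNA was higher in larger cattle (Bos taurus) embryos, some lie beside each other in the deposited gene list, and these neighbours are described here. A gene was taken as steep when its mean level was at least 1 CPM, counts divided by the file's total and multiplied by 1000000, and its slope on size was at least 0.35. The slope is the least squares change in log2(CPM + 1) for each doubling of the embryo's size number, over all 27 embryos. Of 19994 gene identifiers, 10771 had a mean of at least 1 CPM and 263 of these were steep. Another steep gene lay within 5 rows of 74 of the 263. A list of 6 identifiers was left out as members in advance, 3 of them among the 74, which left 71 members. The members were thus selected on their size slopes, so the slopes are given as descriptions without a test.

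Each library is the RNA of 1 embryo on day 15 of pregnancy, and the series asked how the dam's diet affects such embryos. The long group held 6 embryos of dams fed an omega-3 diet (size numbers 10.5 to 20.3, median 12.3), the short omega-3 group held 10 embryos (0.4 to 9.5, median 4.95) and the group of short embryos of omega-6 dams held 11 (1.4 to 7.7, median 2.5). The unit of the size number is not stated, and no long omega-6 embryo was analysed here, so long size and the omega-3 diet go together. Titles carry the letter m for 15 embryos and f for 12, read here as male and female. Dams and batches are not named, and embryos may share a dam, so a p-value speaks only of the spread among the embryos at hand.

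Total counts per library ranged over 17931620 to 29868584, with a median of 24349563. Embryos 22 and 25, both short omega-6, stood apart from the rest. Over log2(CPM + 1) of the 10771 genes, their median Pearson r with the other embryos was 0.919 for embryo 22 and 0.928 for embryo 25. The smallest embryo, 14, a short omega-3 embryo with size number 0.4, came next at 0.954, and the highest embryo reached 0.985. Gene names are not in the files, and a RefSeq table of cattle genes matched no identifier. No member is therefore given a name, a position, a sequence or a function, and the label embryo could not be checked against marker genes.

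At this stage the cattle embryo is not yet attached, and the trophectoderm, its outer layer, lengthens into a filament while the disc that forms the body stays small. The trophectoderm secretes interferon tau, the signal by which the dam recognises the pregnancy. Several gene families that ruminant trophoblast uses, such as the pregnancy-associated glycoproteins, are known to lie as clusters of similar copies. Genes that lie side by side may be such copies, may share regulatory DNA, or may overlap and share reads. In whole-embryo RNA, more cells of a type and more RNA per cell cannot be told apart.

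The 71 members fell into 34 runs, a run being steep genes linked by gaps of at most 5 rows. Of the runs, 29 held 2 steep genes, 4 held 3 and 1 held 4, and 3 runs included a gene left out as a member. Within runs, 25 of the 40 steps led to the very next row. The row order is not the order of the identifiers and the files give no coordinates, so a row distance is a distance in the list and not in bases. Having another steep gene within 5 rows was a property of 28.1% of steep genes, against 11.8% of the genes with a mean of at least 1 CPM that were not steep. The rule used this property to choose members, so nothing is read from their share.

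Mean levels of the members ran from 1.74 to 2514 CPM, with a median of 13 CPM. Of the 71, 16 lay below 5 CPM, 24 lay at 5 to 20 CPM, 19 at 20 to 100 CPM and 12 at 100 CPM or more. The 4 highest members held 63.2% of the members' summed mean CPM. Slopes ran between 0.35 and 1.18 with a median of 0.48, which is 1.28-fold to 2.27-fold per doubling of size with a median of 1.39-fold. The median slope of all genes with a mean of at least 1 CPM was -0.0058. At the limit, ENSBTAG00000012073 (118 CPM) and ENSBTAG00000004028 (5.34 CPM) lay just inside, each with a slope of 0.35. Just outside lay ENSBTAG00000011628 (26.6 CPM, slope 0.347) and ENSBTAG00000038186 (430 CPM, slope 0.346).

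**Figure D1:**
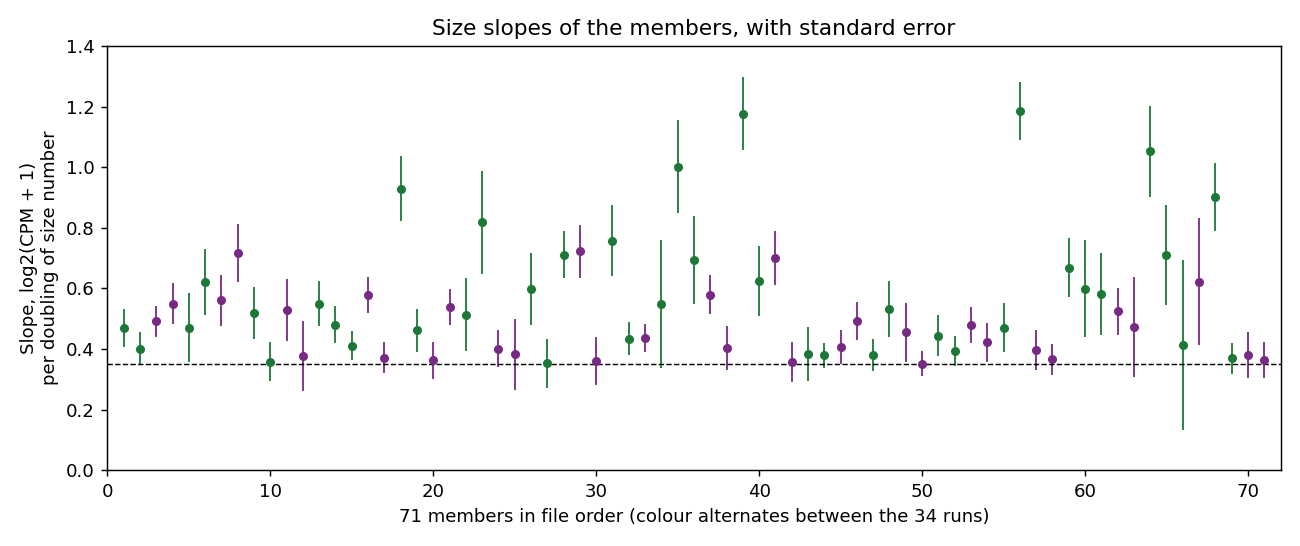
Slope of log2(CPM + 1) on log2 size number for each of the 71 members in file order, with bars for the standard error (SE) and a dashed line at the limit of 0.35. Neighbouring points of 1 colour belong to 1 run; 13 members reach 0.7 or more, and the steepest stands at 1.18.

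Summed over the members, the share of all counts was 1.21% to 2.09% in long omega-3 embryos (median 1.54%), 0.188% to 1.69% in short omega-3 embryos (median 1.19%) and 0.244% to 1.63% in short omega-6 embryos (median 0.672%). The lowest share, 0.188%, was that of embryo 14. The long median lay above both short medians in all 71 members, by 1.09-fold to 46.8-fold over the higher short median (median 1.75-fold) and by 2-fold or more in 24. The long embryos were the largest and the members were chosen for rising with size, so the rule made higher long medians likely. Long and short embryos overlapped in 69 of the 71. In the median member 16 of the 21 short embryos were lower than every long one, and the members ranged over 8 to 21 such embryos. Among all genes with a mean of at least 1 CPM, 0.167% had every long embryo above every short one, against 2 of the 71 members, which the size rule made likelier to be so.

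These 2 members were ENSBTAG00000019368 and ENSBTAG00000000898. ENSBTAG00000019368 had 17.1 to 24.6 CPM in long omega-3 embryos (median 19.9), 0.426 to 14.6 CPM in short omega-3 embryos (median 4.42) and 0.558 to 10.8 CPM in short omega-6 embryos (median 5.21). Its slope was 0.93 ± 0.11 (SE, n = 27). ENSBTAG00000000898, named because of this separation, had 41.9 to 85.9 CPM in long embryos (median 44.9), 3.53 to 41.1 CPM in short omega-3 embryos (median 17.9) and 3.45 to 33.5 CPM in short omega-6 embryos (median 14.6). In both, the short groups covered much the same range and the long embryos lay above it.

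Extremes were concentrated in few embryos. The lowest value lay in embryo 14 for 34 members and in embryo 25, with size number 1.4, for 19. The highest value lay in a long embryo for 51 members, but seldom in the largest. Embryo 16 (size 11.7) held 20 of the maxima, embryo 04 (12.9) held 17, the short embryo 11 (9.5) held 13 and the largest embryo, 01, held 6. Without embryo 14 the median slope of the members was 0.52 and 69 stayed at 0.35 or more. Without embryos 22 and 25 it was 0.46 and 63 stayed, and in the 21 short embryos alone it was 0.47 and 59 stayed. The rule favours low values in small embryos, high values in large ones and slopes that stay positive. These counts are therefore descriptions only.

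The run with the highest summed level held ENSBTAG00000033096, ENSBTAG00000019173 and ENSBTAG00000024611 in 3 rows that follow each other. ENSBTAG00000033096, the highest member, had 1741 to 4844 CPM in long omega-3 embryos (median 3398), 22 to 5433 CPM in short omega-3 embryos (median 3072) and 316 to 5260 CPM in short omega-6 embryos (median 1205). The groups overlapped, with 9 of the 21 short embryos lower than every long one, and its maximum of 5433 CPM was that of a short omega-3 embryo. Embryo 14, at 22 CPM, lay far below the next lowest short omega-3 embryo, at 719 CPM. Its slope was 1.05 ± 0.15, and 0.74 without embryo 14.

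ENSBTAG00000019173, in the next row, had 3.89 to 53.3 CPM in long omega-3 embryos (median 7.34), 0.155 to 25.1 CPM in short omega-3 embryos (median 5.78) and 0.480 to 37.7 CPM in short omega-6 embryos (median 1.88). Its highest embryo in each group stood well above that group's median, and its slope was 0.71 ± 0.16. ENSBTAG00000024611 was present in some embryos and nearly missing in the rest. It was at 7.86 CPM or more in 6 embryos, of which 3 were long, 2 short omega-3 and 1 short omega-6, and at 0.282 CPM or less in the other 21. Long omega-3 embryos had 0.124 to 37.0 CPM (median 7.27), short omega-3 embryos 0 to 37.8 CPM (median 0.155) and short omega-6 embryos 0 to 7.86 CPM (median 0.0739). The 6 embryos spanned sizes from 2.1 to 13.2, and the largest embryo was not among them. Its slope of 0.41 ± 0.28 rested on these embryos and was -0.27 within the omega-6 embryos.

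Another run of 3 held ENSBTAG00000010742, ENSBTAG00000047957 and ENSBTAG00000045728. ENSBTAG00000045728 had 415 to 850 CPM in long omega-3 embryos (median 635), 137 to 728 CPM in short omega-3 embryos (median 524) and 37.2 to 687 CPM in short omega-6 embryos (median 317). ENSBTAG00000047957 had 242 to 545 CPM in long omega-3 embryos (median 384), 72.9 to 445 CPM in short omega-3 embryos (median 312) and 16.5 to 398 CPM in short omega-6 embryos (median 203). The order of the group medians was the same in both, and both were lowest in embryo 25 and highest in embryo 16. ENSBTAG00000010742 had 97.1 to 175 CPM in long omega-3 embryos (median 152), 20.4 to 193 CPM in short omega-3 embryos (median 101) and 12.5 to 211 CPM in short omega-6 embryos (median 64.5). The slopes were 0.58 ± 0.14 for ENSBTAG00000045728, 0.60 ± 0.16 for ENSBTAG00000047957 and 0.67 ± 0.10 for ENSBTAG00000010742. Within the omega-3 embryos alone ENSBTAG00000045728 and ENSBTAG00000047957 each had a slope of 0.38, and without embryos 22 and 25 each had 0.46.

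In the third such run a high gene stood beside a pair of low ones. ENSBTAG00000013127 had 529 to 811 CPM in long omega-3 embryos (median 749), 186 to 824 CPM in short omega-3 embryos (median 596) and 252 to 746 CPM in short omega-6 embryos (median 424). ENSBTAG00000004840 had 8.30 to 13.1 CPM in long omega-3 embryos (median 9.77), 1.51 to 10.9 CPM in short omega-3 embryos (median 5.59) and 2.16 to 8.54 CPM in short omega-6 embryos (median 4.66). ENSBTAG00000008612 had 3.20 to 8.85 CPM in long omega-3 embryos (median 4.57), 0.310 to 7.65 CPM in short omega-3 embryos (median 2.59) and 0.392 to 3.46 CPM in short omega-6 embryos (median 1.74). All 3 were lowest in embryo 14, and in each the groups overlapped. Their slopes, 0.41 ± 0.05, 0.48 ± 0.06 and 0.55 ± 0.07, were nearly alike within each diet, at 0.37, 0.45 and 0.50 in omega-3 embryos and 0.54, 0.48 and 0.53 in omega-6 embryos.

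**Figure D2:**
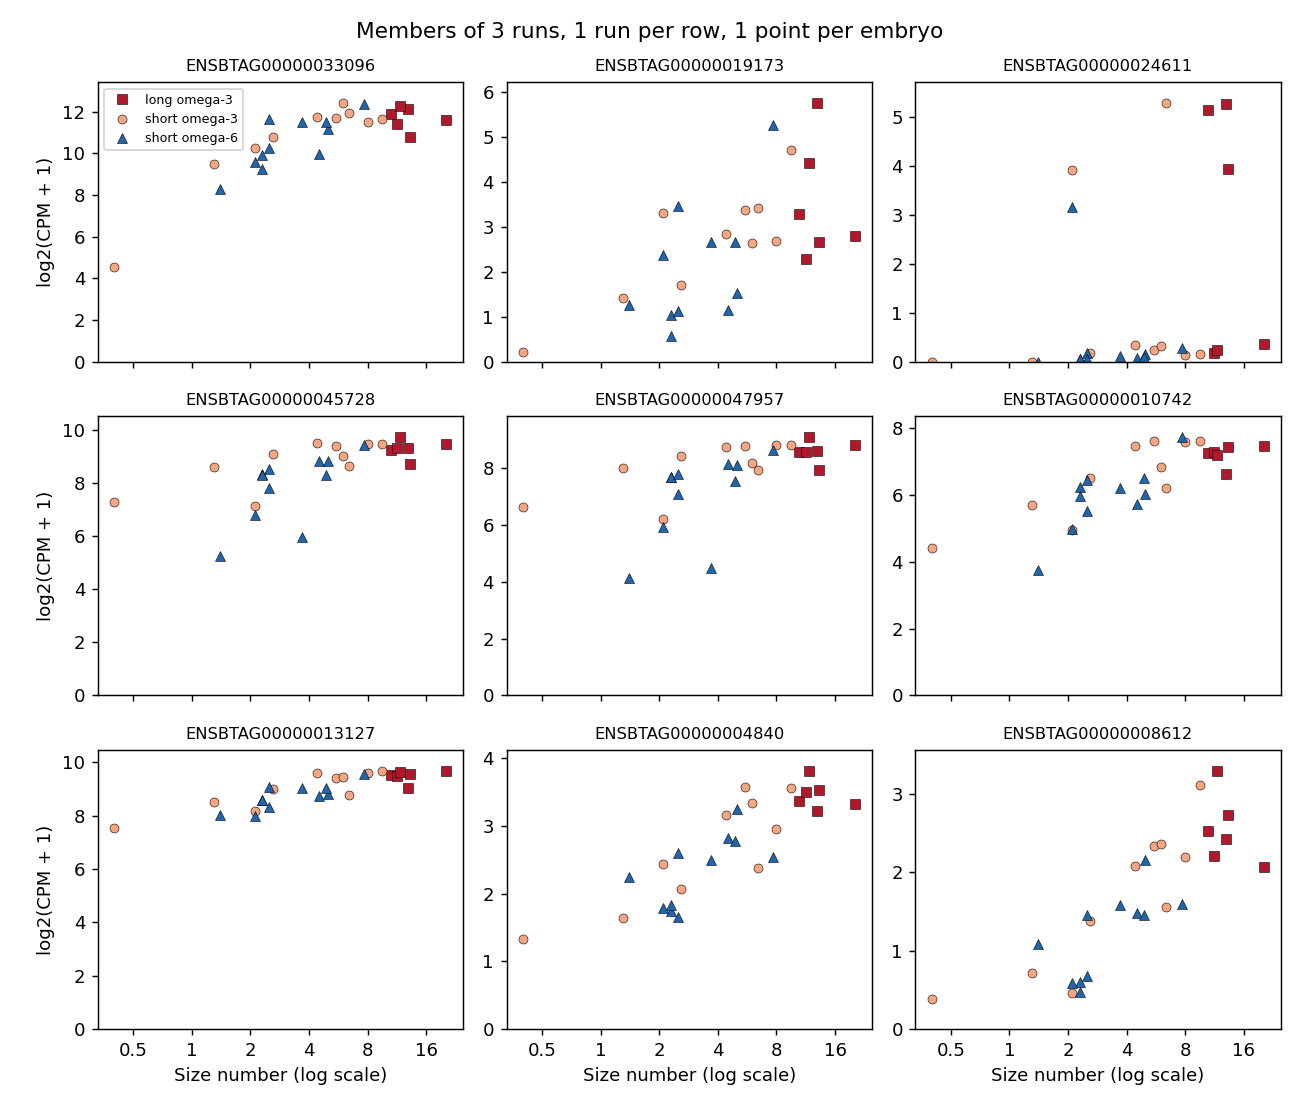
log2(CPM + 1) of the 9 members of the 3 runs above against size number on a log scale, 1 run per row and 1 point per embryo, with squares for long embryos, circles for short omega-3 ones and triangles for short omega-6 ones. ENSBTAG00000024611 splits into 6 embryos at 7.86 CPM or more and 21 at 0.282 CPM or less, while ENSBTAG00000047957 and ENSBTAG00000045728 draw nearly the same picture.

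Steep slopes and high levels met in ENSBTAG00000014127, which had 2614 to 3880 CPM in long omega-3 embryos (median 3278), 38.7 to 3217 CPM in short omega-3 embryos (median 1891) and 130 to 2733 CPM in short omega-6 embryos (median 717). In 18 of the 21 short embryos it was lower than in any long one, and the slope was 1.18 ± 0.12. ENSBTAG00000019315 had the same slope, 1.18 ± 0.10, at a lower level. Its values were 182 to 332 CPM in long omega-3 embryos (median 231), 4.96 to 239 CPM in short omega-3 embryos (median 47.9) and 11.8 to 163 CPM in short omega-6 embryos (median 27.2), and 20 of 21 short embryos were lower than any long one. ENSBTAG00000013950, with a slope of 1.0 ± 0.15, had 161 to 1094 CPM in long omega-3 embryos (median 207), 4.42 to 412 CPM in short omega-3 embryos (median 104) and 21.7 to 259 CPM in short omega-6 embryos (median 63.4). Its maximum of 1094 CPM in embryo 04 was followed by 551 CPM in the next embryo.

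The other highly expressed members changed less per doubling. ENSBTAG00000015505 had 1852 to 3431 CPM in long omega-3 embryos (median 2154), 577 to 2691 CPM in short omega-3 embryos (median 1699) and 780 to 2025 CPM in short omega-6 embryos (median 1386), with a slope of 0.37 ± 0.05. ENSBTAG00000030174 had 586 to 951 CPM in long omega-3 embryos (median 874), 136 to 1000 CPM in short omega-3 embryos (median 759) and 92.4 to 947 CPM in short omega-6 embryos (median 468), with a slope of 0.53 ± 0.09. ENSBTAG00000013901 kept within 716 to 821 CPM in long omega-3 embryos (median 779), against 137 to 858 CPM in short omega-3 embryos (median 659) and 231 to 757 CPM in short omega-6 embryos (median 516), with a slope of 0.44 ± 0.05. All 3 overlapped between the groups, and the first alone had its maximum in a long embryo.

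Whether the rise was even over the size range was tested by the curvature, the squared, centred log2 size number, in a model with log2 size, diet and sex letter (edgeR quasi-likelihood test with Benjamini-Hochberg adjustment over 11919 genes). It passed in 3 genes (0.0252%), of which 1 was a member. This was ENSBTAG00000033096, whose curvature of -0.39 ± 0.07 (SE, adjusted p = 0.0138, n = 27) is that of a slope less steep at larger sizes. Without embryo 14 the value was -0.41 ± 0.11 and no longer passed (adjusted p = 0.331). At an unadjusted p below 0.05, 11 of the 71 members had a negative and 3 a positive curvature, against 3.14% of all genes with a negative and 4.03% with a positive one. The slope that chose the members had no curvature term. A gene very low in the smallest embryo, 14, gains in slope and in negative curvature, so it was likelier to enter. These counts are therefore no separate evidence that the members' rise levels off. The most positive evidence was for ENSBTAG00000013298, at 0.38 ± 0.13 (adjusted p = 0.365). That gene had 0.334 to 10.6 CPM in long omega-3 embryos (median 5.69), 0.0413 to 3.64 CPM in short omega-3 embryos (median 0.449) and 0 to 1.99 CPM in short omega-6 embryos (median 0.201), so it reached 1 CPM in 9 embryos only, 5 of them long. For curvature, all 71 members passed the filter on low counts.

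The members' slopes were positive within either diet for nearly all of them. The same embryos chose the members, so the rule made this likely and the counts are descriptions only. In the 16 omega-3 embryos the median slope was 0.42, all 71 were above 0 and 58 reached 0.35. In the 11 omega-6 embryos the median was 0.54, 70 were above 0 and 56 reached 0.35, the exception being ENSBTAG00000024611. Over all genes with a mean of at least 1 CPM the median slope was -0.021 in omega-3 and 0.0046 in omega-6 embryos. The slope was higher in omega-6 than in omega-3 embryos in 42 members, and the share of all genes with that order was not computed. The diets covered unlike sizes, 0.4 to 20.3 in omega-3 and 1.4 to 7.7 in omega-6 embryos. The smallest omega-6 embryo was 25, which stood apart and was lowest in 19 members. Nothing is therefore read from this count. In the 21 short embryos, which give both diets a shared size range, the difference in slope between diets passed for none of 11534 genes (edgeR, 0%, with 505 at p below 0.05 before adjustment) and for 1 with DESeq2. Among the 69 members left by the filter there, none passed with either tool, and 2 had a positive and 1 a negative difference at an unadjusted p below 0.05 with edgeR, against 1.96% of all genes with a positive and 2.42% with a negative one.

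The smallest p with a steeper slope under omega-3 was that of ENSBTAG00000014401, with a difference of 0.55 ± 0.25 (SE, edgeR adjusted p = 0.840, n = 21). It had 7.24 to 12.4 CPM in long omega-3 embryos (median 8.13), 1.51 to 9.49 CPM in short omega-3 embryos (median 5.15) and 2.64 to 7.07 CPM in short omega-6 embryos (median 4.23). In the opposite direction ENSBTAG00000004028 had -0.69 ± 0.29 (edgeR adjusted p = 0.840), with 5.2 to 8.32 CPM in long omega-3 embryos (median 7.17), 2.91 to 7.74 CPM in short omega-3 embryos (median 5.90) and 0.525 to 8.54 CPM in short omega-6 embryos (median 3.92). The lowest of these, 0.525 CPM, was that of embryo 25.

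**Figure D3:**
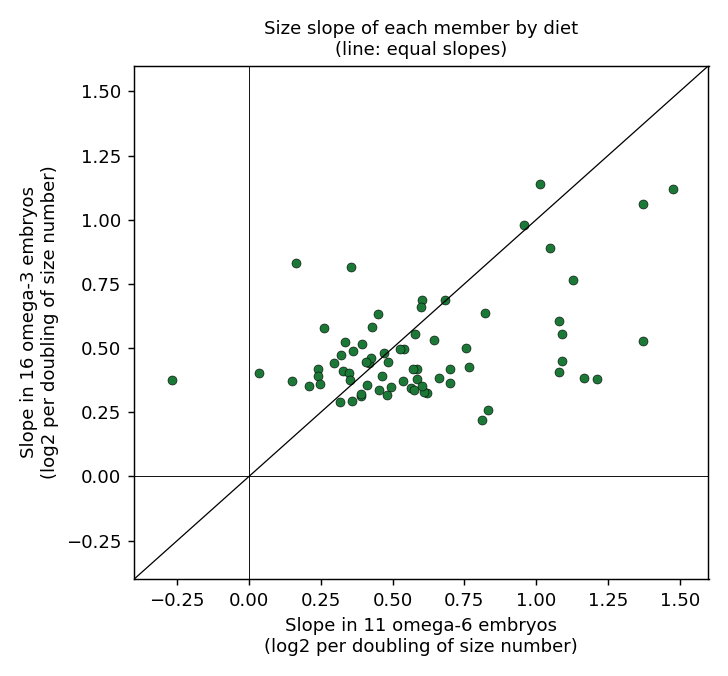
Size slope of each of the 71 members in the 16 omega-3 embryos (vertical axis) against that in the 11 omega-6 embryos (horizontal axis), in log2 per doubling of the size number, with a line of equal slopes. All points lie above 0 on the vertical axis and 70 of 71 on the horizontal one, which the rule made likely. Below the line, steeper under omega-6, lie 42, but the diets cover unlike size ranges.

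At equal size, diet called no gene in the model of diet, log2 size and sex letter (edgeR, 0 of 11919, 0%, with 1415 at an unadjusted p below 0.05; 0 with DESeq2), and so no member. The difference, omega-3 minus omega-6, was positive in 58 of 71 members, with a median of 0.19 and a median SE of 0.23, against 50.7% of all genes and a median of 0.00. At an unadjusted p below 0.05, 7 members were higher and none lower under omega-3, against 3.32% of all genes higher and 8.55% lower. The slope that chose the members had no diet term, and the omega-3 embryos were larger, so a gene higher under omega-3 was likelier to enter. These counts are therefore no separate evidence of a diet difference.

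ENSBTAG00000013918 had the smallest p among members higher under omega-3, with a log2 difference of 0.45 ± 0.16 at equal size (SE, edgeR adjusted p = 0.414). Its values were 15.4 to 27.7 CPM in long omega-3 embryos (median 21), 4.26 to 17.3 CPM in short omega-3 embryos (median 12.4) and 2.69 to 14.2 CPM in short omega-6 embryos (median 8.05), and the short groups overlapped. ENSBTAG00000018645 had the smallest p among those lower under omega-3, at -0.27 ± 0.16 (edgeR adjusted p = 0.461). It had 74.1 to 111 CPM in long omega-3 embryos (median 82.9), 12.6 to 88.5 CPM in short omega-3 embryos (median 63.6) and 42.8 to 99.9 CPM in short omega-6 embryos (median 53.2). Before size was taken into account, the short omega-3 median lay above the short omega-6 median in 66 members, by a median of 1.5-fold, while the short omega-3 embryos were also the larger ones by median size.

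The sex letter (m minus f) passed in 49 of 11919 genes (0.411%, edgeR) and in no member with edgeR or DESeq2. At an unadjusted p below 0.05 with edgeR, 3 members were higher and none lower in m, against 2.63% of all genes higher and 2.74% lower. The smallest p among members higher in m was that of ENSBTAG00000004093 at 0.37 ± 0.16 (SE, edgeR adjusted p = 0.777). For this gene the groups held 36.5 to 60.0 CPM in long omega-3 embryos (median 40.5), 12 to 38.9 CPM in short omega-3 embryos (median 21.7) and 9.42 to 35.4 CPM in short omega-6 embryos (median 19.2). The smallest p in the other direction was that of ENSBTAG00000013071 at -0.25 ± 0.19 (edgeR adjusted p = 0.999), with 5.51 to 9.43 CPM in long omega-3 embryos (median 8.30), 1.47 to 9.69 CPM in short omega-3 embryos (median 7.14) and 0.938 to 7.99 CPM in short omega-6 embryos (median 4.50).

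Neighbouring members could share a slope and still vary apart from embryo to embryo. This was measured on the residuals of log2(CPM + 1) after a straight line in log2 size, diet and sex letter. The rule did not use these residuals directly, but it kept a gene only with a steep gene nearby. Neighbours whose values vary together also have slopes that err together, so such pairs were likelier to enter. The shares of correlated member pairs given here and below are therefore not free of the rule. Curvature with size that neighbours share stays in them, and its part in the correlations was not tested. Over the 40 pairs of members within 5 rows of each other the median Pearson r was 0.43 (quartiles 0.23 and 0.68, range -0.12 to 0.995), and 34 pairs were above 0. An r of 0.5 or more occurred in 18 of the 40, or 45%, against 24.4% of the 32729 other pairs of genes within 5 rows of each other and 19.6% of the 2445 pairs of members farther apart. The 23 pairs in adjoining rows had a median r of 0.61 and 12, or 52.2%, reached 0.5. Among the 6930 other pairs of genes in adjoining rows the median was 0.22 and 27.4% reached 0.5. The 17 member pairs at 2 to 5 rows had a median of 0.38 and 6 reached 0.5.

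Pearson's r and Spearman's rho both passed a two-sided permutation test (adjusted p below 0.05 over all 32769 pairs of genes within 5 rows) in 18 of the 40 pairs, all positive, which covered 32 members. Of the other pairs within 5 rows, 16.6% passed both with a positive r. Among the 18 pairs, r stayed at 0.60 or more without embryos 14 and 01, the farthest from the median size, and at 0.54 or more without embryos 22 and 25. Without embryos 22 and 25, 19 member pairs reached an r of 0.5 or more. The share at that r was then 11% among other neighbouring pairs and 22% among pairs of members more than 5 rows apart. With all embryos these shares were 24.4% and 19.6%. Without these embryos, members that are not neighbours thus also lay above the other neighbouring pairs.

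**Figure D4:**
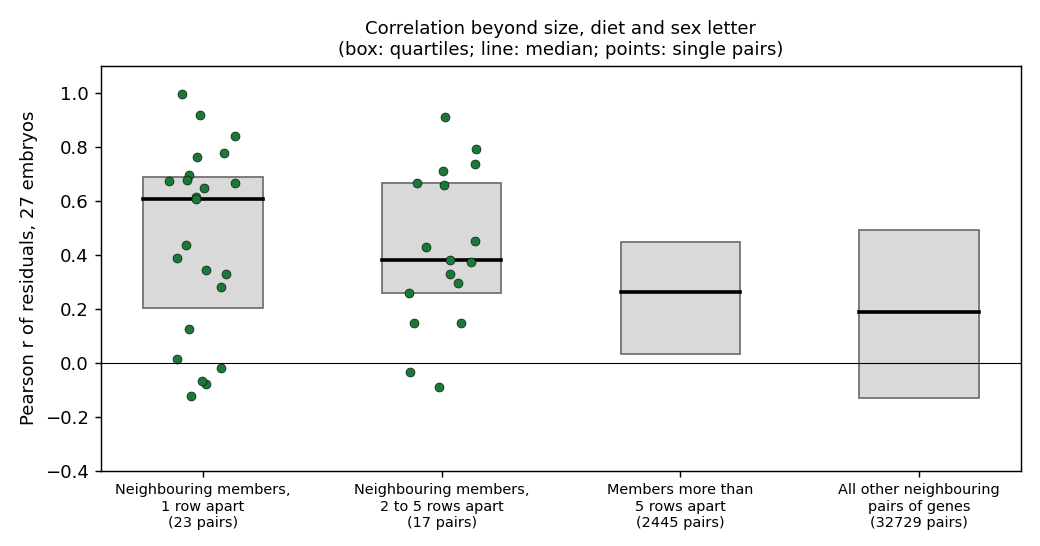
Pearson r of residuals over 27 embryos for neighbouring members in adjoining rows, neighbouring members 2 to 5 rows apart, members farther apart and all other neighbouring pairs of genes. Boxes span the quartiles, lines are medians and green points single member pairs; the medians from left to right are 0.61, 0.38, 0.26 and 0.19.

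The closest pair was ENSBTAG00000047957 and ENSBTAG00000045728, in adjoining rows, with r = 0.995 and rho = 0.980 (n = 27, permutation p = 1e-05 each, the smallest the permutations can give; adjusted p = 0.000143 for r and 0.000403 for rho). It was 0.995 without embryos 14 and 01, and 0.995 without 22 and 25. The counts of ENSBTAG00000047957 were 61.2% of those of its neighbour in the median embryo and at most 65.9%. They were 34.5% in embryo 22 and 44.4% in embryo 25, and at least 53.0% in every other embryo. The third gene of the run, ENSBTAG00000010742, followed less closely, with r = 0.61 to ENSBTAG00000047957 and 0.66 to ENSBTAG00000045728 (permutation adjusted p = 0.00457 and 0.00149). In embryo 22 its counts were 342% of those of ENSBTAG00000047957, against 39.6% in the median embryo.

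The next pair, ENSBTAG00000005339 and ENSBTAG00000047561, also in adjoining rows, had r = 0.92 and rho = 0.92 (permutation p = 1e-05 each, adjusted p = 0.000143 and 0.000403). ENSBTAG00000005339 had 52.6 to 92.5 CPM in long omega-3 embryos (median 69.8), 11.3 to 77.6 CPM in short omega-3 embryos (median 56.1) and 19.5 to 80.3 CPM in short omega-6 embryos (median 35.2). ENSBTAG00000047561 had 11.4 to 22.1 CPM in long omega-3 embryos (median 14.9), 3.06 to 17.7 CPM in short omega-3 embryos (median 12.5) and 3.83 to 16.7 CPM in short omega-6 embryos (median 7.80). Its counts were 21.8% of its neighbour's in the median embryo, 27.1% at most, 13.2% in embryo 22 and at least 19.7% elsewhere. The share was thus nearly fixed in both pairs while the levels differed several-fold between embryos, and embryo 22 had the lowest share in both. Overlapping genes or similar copies may share reads, the strand setting of the counting is not given in the sources used here, and whether shared reads add to these correlations was not tested.

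ENSBTAG00000002781 and ENSBTAG00000004028, 4 rows apart, had r = 0.91 and rho = 0.85 (permutation p = 1e-05 each, adjusted p = 0.000143 and 0.000403), and r = 0.76 without embryos 22 and 25. ENSBTAG00000002781 had 20.6 to 35.5 CPM in long omega-3 embryos (median 27), 4.46 to 25.8 CPM in short omega-3 embryos (median 21.3) and 0.750 to 31.6 CPM in short omega-6 embryos (median 10.3). Both genes were lowest in embryo 25. The third member of that run, ENSBTAG00000000898, was 5 rows from ENSBTAG00000004028 and had r = 0.43 to it (permutation adjusted p = 0.0677), and -0.08 without embryos 22 and 25.

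Correlation was weaker where levels were far apart. In the 12 pairs whose mean CPM differed 10-fold or more the median r was 0.36 and 3 reached 0.5, against a median of 0.63 and 15 of 28 in the pairs closer in level. Low counts carry more counting noise, and its part in this was not tested. The lowest r belonged to ENSBTAG00000014127 and ENSBTAG00000013298 in adjoining rows, at -0.12 with rho -0.15 (permutation p = 0.536, adjusted p = 0.663). The counts of ENSBTAG00000013298 were 0.0389% of its neighbour's in the median embryo and 0.7% at most. In the highest run ENSBTAG00000033096 had r = 0.44 to ENSBTAG00000019173 (permutation adjusted p = 0.0611) and -0.03 to ENSBTAG00000024611. In the run of ENSBTAG00000013127, the low genes ENSBTAG00000004840 and ENSBTAG00000008612 had r = 0.76 to each other (permutation adjusted p = 0.000143) and 0.33 and 0.45 to their high neighbour (adjusted p = 0.183 and 0.0507).

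**Figure D5:**
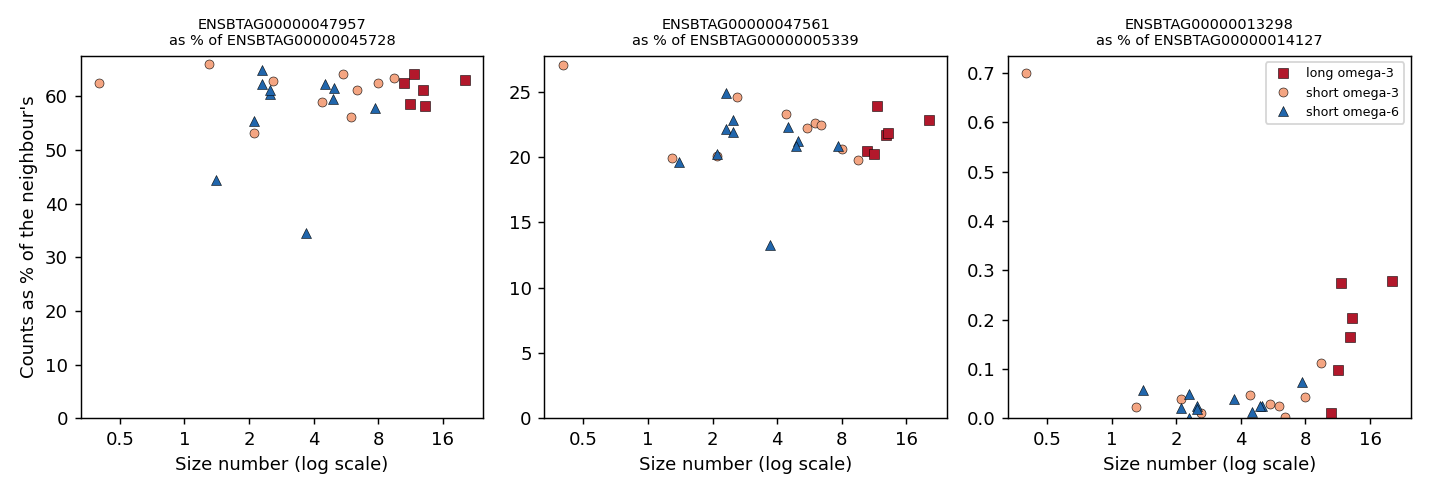
Counts of 1 gene as a percentage of its neighbour's in each embryo, against size number on a log scale, for the 2 closest pairs and the pair with the lowest correlation, with symbols by group as before. In the first panel most embryos lie near the median of 61.2%, with embryo 22 at 34.5%; in the last the share stays at or below 0.7%.

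Within 5 rows of a member lay 375 genes that were not steep, and 208 of these had a mean of at least 1 CPM. Their median slope was 0.01 (quartiles -0.06 and 0.09) and 52.9% were above 0, against a median of -0.01 (quartiles -0.08 and 0.07) and 46.8% in the 10300 other genes that were not steep. Both sets hold only genes with slopes below 0.35, so nothing is read from their low medians.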

How the data were processed

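Polyadenylated RNA of 27 embryos was sequenced as single reads of 100 bp with a stranded kit, per the labels' protocols. The values used are whole-number read counts per gene as deposited by the authors, 1 file per embryo, with no normalisation. The submitters' processing notes name STAR, an aligner, and featureCounts, a read counter, with no version. Not given in the sources used here are the genome build, the annotation, the strand setting and the treatment of reads shared by similar genes.

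Counts were divided by file totals for CPM, and members were found as described in the report with numpy 2.4.6 and pandas 2.3.3. Groups, the size number and the sex letter were read from the labels. Tests across all genes used edgeR 4.0.16 in R 4.3.3 (filterByExpr with minimum count 10, minimum total 15 and minimum proportion 0.7, TMM scaling, quasi-likelihood F-test, two-sided, Benjamini-Hochberg adjustment over all genes tested), with DESeq2 1.42.0 as the alternative. Standard errors are the log2 change over the square root of F. Residual correlations had 100000 permutations per pair. Their p-values were adjusted over all neighbouring pairs of genes, not over the member pairs alone as first planned. The tests were tested on simulated data.

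The members and lists were chosen with earlier results of these data known. Genes named are the members of the 3 largest runs (those with most members, ties by summed mean CPM), the 5 highest by mean CPM, the 5 steepest, those at the slope limit, the smallest p in each direction of each test, and the 3 highest and 1 lowest pairs by residual correlation. Gene lists and cell type markers planned by name could not be used, because no table paired names with identifiers. Alternatives were other scalings, filters, limits and pseudocounts, and fits without embryo 14, without 22 and 25, and without 07.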

Additional observations from a re-analysis of the deposited data

Results flagged for a closer look

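Each of 27 named members was checked among the long and among the short omega-3 embryos for an embryo far from the others on the log2(CPM + 1) scale (Dixon's test, 54 groups checked), and chance flags about 1 in 20 groups. The 11 short omega-6 embryos, which include 22 and 25, were not checked, because the test was run on groups of at most 10. Embryo 14 was far below the other short omega-3 embryos in 4 members. It had 22 CPM of ENSBTAG00000033096 (nearest embryo 719 CPM), 137 CPM of ENSBTAG00000013901 (368), 12.6 CPM of ENSBTAG00000018645 (42.8) and 11.3 CPM of ENSBTAG00000005339 (29.0). Embryo 11, also short omega-3, was far above the others in ENSBTAG00000013298, at 3.64 CPM (nearest 1.26). Values were not adjusted for size in this check. Embryo 14 is the smallest embryo and embryo 11 the largest short one. The members were chosen for rising with size, so both flags were likelier than chance alone would make them.

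Among the long embryos, embryo 04 stood low in ENSBTAG00000013127 at 529 CPM (nearest 719) and in ENSBTAG00000010742 at 97.1 CPM (nearest 144). It stood high in ENSBTAG00000004093, at 60.0 CPM (nearest 43.6). Embryo 16 stood high in ENSBTAG00000018645 at 111 CPM (nearest 84.8) and in ENSBTAG00000015505 at 3431 CPM (nearest 2294).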

How the results depend on the processing

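No paired analysis was possible because embryo numbers do not repeat across groups. The number of members depended on the rule's limits. It was 126 with a pseudocount of 0.1, 205 at a slope of at least 0.25, 15 at 0.5, 45 within 1 row and 46 at a mean of at least 5 CPM. Without embryo 14 it was 123, of which 66 were among the 71. It was 86 on TMM-scaled CPM, 88 within 10 rows, 54 without embryos 22 and 25, and 67 in short embryos alone, 49 of them among the 71. Members called for diet, sex letter and slope difference stayed at 0 under all alternatives run. For curvature, DESeq2 called 3 members (81 genes), adding ENSBTAG00000013901 and ENSBTAG00000014127, and without embryo 14 edgeR called 0 members and 0 genes (782 at an unadjusted p below 0.05). Curvature calls numbered 9 genes with no filter and 7 without embryos 22 and 25. For the sex letter the genes called were 86 with DESeq2, 100 without embryos 22 and 25, and 78 without embryo 07, whose letter f was in doubt from an earlier look at these counts. For slope difference 1 gene was called with no filter and 1 with DESeq2. Pairs with a residual r of 0.5 or more numbered 17 to 20. Of 108 alternative slopes of named members, 107 were positive, and ENSBTAG00000024611 reversed to -0.27 within omega-6. These alternatives use embryos that chose the members, so the rule made positive slopes likely. Adjusted p-values of the named members ranged over 1.59e-07 to 0.331 for the curvature of ENSBTAG00000033096 and over 0.0973 to 0.876 for that of ENSBTAG00000013298. They ranged over 0.327 to 0.995 for ENSBTAG00000013918 and 0.407 to 0.997 for ENSBTAG00000018645 (diet), and over 0.825 to 0.999 for slope difference in ENSBTAG00000014401 and ENSBTAG00000004028.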
